A study of Mus musculus with 22 samples.

Results

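Messenger RNA of the H3K4 methyltransferases and their shared core subunits was followed through preimplantation development in control and H2A.Z KD mouse embryos. The members were chosen by gene symbol in the deposited table of FPKM, a level in which sequenced fragments are divided by transcript length and library size, which gave 10 of 55335 genes. They were the 6 catalytic genes Kmt2a, Kmt2b, Kmt2c, Kmt2d, Setd1a and Setd1b and the 4 core subunit genes Ash2l, Wdr5, Rbbp5 and Dpy30.

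Methylation of lysine 4 on histone H3 marks active and poised promoters when it is trimethylated and enhancers when it is monomethylated. Each catalytic subunit of the SET1 and MLL families binds a core module of WDR5, RBBP5, ASH2L and DPY30, which raises its activity, and other subunits bring the assembled complex to its targets. In mouse oocytes and early embryos the mark is rebuilt around zygotic genome activation, MLL2 (the product of Kmt2b) is known for the broad H3K4me3 of the oocyte, and H2A.Z is a histone H2A variant of nucleosomes beside transcription start sites.

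The 22 RNA-seq libraries each hold 15 pooled embryos that B6D2F1 females, superovulated at 8 weeks of age, had conceived with B6D2F1 males. For the KD, zygotes at 20 to 22 h post hCG injection had received about 10 pL of a mixture of 3 pairs of siRNAs against H2A.Z at 20 µM, whereas the methods describe no injection of controls, name noninjected controls for quantitative PCR only, and do not say how the control embryos of these libraries were handled. Embryos were cultured and taken at the 2-cell stage at 43 to 44 h, as morulae at 78 h and as blastocysts at 94 h post hCG injection, and every stage has 4 control libraries. KD libraries number 3 at the 2-cell stage, 3 at the morula stage and 4 at the blastocyst stage. Libraries were made with the Smart-seq2 method, which copies polyadenylated RNA over its full length, with 16 to 18 cycles of amplification.

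FPKM are shares of the library's RNA and not amounts per embryo. The number of reads behind a value is unknown. As a rough step, the most frequent value of FPKM times length within a preset low range was taken among 13500 single-exon genes. Its inverse, a relative depth, had medians of 25.2 and 23.4 relative units in control and KD 2-cell embryos, 24.1 and 24.5 in morulae, and 17.8 and 20.0 in blastocysts. Single libraries ranged from 14.8 to 28.2, so the group medians were lowest in blastocysts while libraries of all stages overlapped. In each library only 15.3% to 28.7% of low values lay within 0.05 of a whole step, so numbers of reads could not be recovered from it. In morulae, the deviations of genes from their group means were alike in control and KD libraries of near numbers (r of 0.0944 to 0.347 across genes within the numbers 1 and 2 and within 6 to 8) and opposed across these ranges (-0.0945 to -0.278), where genes are not independent and what the numbers stand for is not given. At the 2-cell stage the KD library 1 was like the controls 1 and 2 (r of 0.209 and 0.205) and unlike 4 and 5 (-0.237 and -0.192), and the KD library 4 the other way round (-0.168 and -0.196, then 0.214 and 0.163). The KD library 2 was near 0 with all of them. In blastocysts r ran from -0.381 to 0.401 without such an order by number. Deviations from a group mean sum to 0 over the group, so likeness to some of its libraries requires opposition to others. The negative r are thus no separate observation. No label names separate litters or collections, so the p-values below measure only the spread between these libraries, which may be technical.

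H2afz, which encodes the main form of H2A.Z and was the target of the KD, was at 1244, 1236, 905 and 1178 FPKM in the control and 415, 139 and 112 FPKM in the KD 2-cell libraries. It was at 1158, 1336, 1511 and 1421 FPKM in control and 30.3, 25.7 and 29.0 FPKM in KD morulae. In blastocysts it was at 2656, 2431, 1945 and 2055 FPKM in control and 64.2, 67.2, 53.2 and 57.6 FPKM in KD libraries. Every KD library thus lay below every control library of its stage, and the KD 2-cell library with the number 1 kept the highest level of the KD libraries. Differences between groups were tested with limma on log2(FPKM + 1) after scaling between libraries, over all genes with at least 1 FPKM in at least 3 libraries of the comparison, and a gene passed at an adjusted p (Benjamini-Hochberg) under 0.05. The log2 difference of H2afz was -5.41 ± 0.17 (SE) in morulae (limma, adjusted p = 9.7e-08, lower in 3 of 3 KD libraries) and -5.19 ± 0.20 in blastocysts (adjusted p = 3.6e-08, lower in 4 of 4). At the 2-cell stage its log2 difference was -2.53 ± 0.38 and did not pass (limma, adjusted p = 0.543), as no gene did in that comparison. Without the KD library with the number 1 it passed (-3.12, limma, adjusted p = 0.00091), within a range of 0.00035 to 0.861 over all alternatives. H2afv, which encodes the second form of H2A.Z, had means of 101 ± 8.75 (SD, n = 4) and 11.3 ± 1.51 (SD, n = 3) FPKM in control and KD morulae and of 57.5 ± 6.40 and 15.3 ± 3.99 FPKM (SD, n = 4 each) in blastocysts. It fell at both stages (log2 difference -2.93 ± 0.15 and -1.86 ± 0.22, limma, adjusted p = 2.9e-06 and 8.0e-05), and at the 2-cell stage its groups overlapped.

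In the mm10 build (GRCm38), the catalytic genes are spread over 4 chromosomes. Kmt2a (ENSMUSG00000002028.13) lies at chr9:44803355-44881296 on the minus strand, Kmt2b (ENSMUSG00000006307.16) at chr7:30568858-30588726 on the minus strand, and Kmt2c (ENSMUSG00000038056.15) at chr5:25271798-25498783 on the minus strand. Kmt2d (ENSMUSG00000048154.17) lies at chr15:98831669-98871204 on the minus strand, Setd1a (ENSMUSG00000042308.14) at chr7:127776670-127800122 on the plus strand, and Setd1b (ENSMUSG00000038384.16) at chr5:123142193-123168629 on the plus strand. Among the core subunit genes, Ash2l (ENSMUSG00000031575.18) is at chr8:25815996-25847694 and Dpy30 (ENSMUSG00000024067.14) at chr17:74299474-74323944, both on the minus strand. Wdr5 (ENSMUSG00000026917.15) is at chr2:27515157-27536535 and Rbbp5 (ENSMUSG00000026439.14) at chr1:132477365-132505659, both on the plus strand. All are protein-coding, with longest annotated transcripts from 789 bases (Dpy30) to 19823 bases (Kmt2d). Setd1a shares 3552 exon bases with other genes, nearly all with Gm49388 on the same strand, and 50.8% of its 75-base words with transcripts of Gm49388, so its level is uncertain. For Wdr5, Dpy30 and Kmt2b no such word was shared, and for the other members at most 2.28% of words. Kmt2a and Kmt2c overlap an antisense exon over 378 and 274 bases, and the strand used in counting is not given in the sources used here.

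The 10 members differed widely in level. In control 2-cell embryos the order by mean FPKM, which is a level per transcript length, was Dpy30, Wdr5, Kmt2c, Ash2l, Setd1a, Kmt2d, Rbbp5, Kmt2b, Setd1b and Kmt2a, from 149 down to 0.0714 FPKM. The ranges of Setd1a and Kmt2d overlapped, as did those of Rbbp5 and Kmt2b, while all other neighbours in that order were apart. In control morulae the order was Dpy30, Ash2l and Wdr5, all apart, then Kmt2c, Rbbp5, Setd1a and Kmt2d, each overlapping the next, then Kmt2b and Setd1b, which overlapped, and Kmt2a. In control blastocysts Dpy30, Ash2l and Wdr5 again led and were apart, Rbbp5 and Kmt2c overlapped, and Kmt2b, Kmt2d, Setd1a, Kmt2a and Setd1b followed at means between 0.614 and 0.335 FPKM, each overlapping the next.

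**Figure D1:**
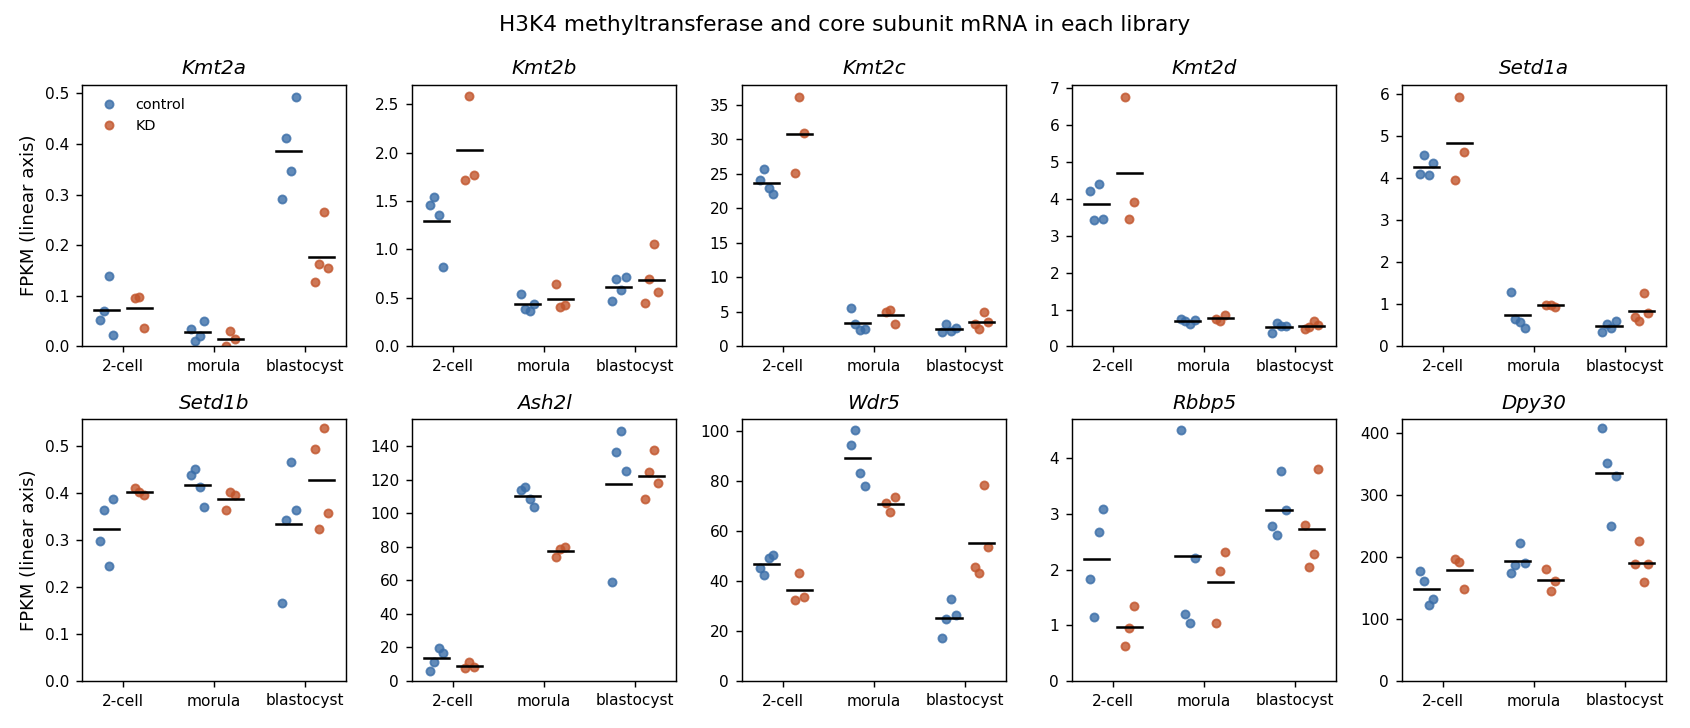
FPKM (linear axis, a scale of its own in each panel) of the 10 genes in every library by stage, with control libraries in blue, KD libraries in orange and black lines at the group means. The 4 KD blastocyst libraries lie above all control blastocyst libraries for Wdr5 (42.99 to 78.32 against 17.1 to 32.7) and below them for Dpy30 (160 to 226 against 250 to 409).

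The course of the members in normal development was read from the control libraries. From the 2-cell stage to the morula, 8 of the 10 members were kept by the filter on low values, of which 2 rose and 4 fell, beside 43% of all 13655 genes tested that rose and 40.3% that fell. Of the 4 that fell, 3 (Kmt2b, Kmt2d and Setd1a) were kept through the 2-cell libraries alone and so had to differ, and the count of members is not used as a result.

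Kmt2b, Kmt2c, Kmt2d and Setd1a were lower in control morulae. Kmt2c, whose product (MLL3) monomethylates H3K4 at enhancers, was at 24.1, 25.8, 22.9 and 22.1 FPKM in control 2-cell embryos and at 5.51, 3.30, 2.39 and 2.47 FPKM in control morulae. Kmt2c fell by 2.54 ± 0.19 on the log2 scale (limma, adjusted p = 1.3e-07, lower in 4 of 4 morula libraries). Kmt2d, which encodes the related MLL4, was at 4.20, 3.43, 4.41 and 3.46 FPKM and then at 0.730, 0.675, 0.617 and 0.711 FPKM. Because the filter chose Kmt2d, Setd1a and Kmt2b by their 2-cell level, their tests are given from the setting without a filter, in which every gene of the table was tested. There Kmt2d was lower by 1.52 (limma, adjusted p = 9.9e-06). The other alternatives kept the filter, so no range over them is given for Kmt2d, Setd1a and Kmt2b. Setd1a, which encodes a catalytic subunit of the SET1 complex, was at 4.10, 4.54, 4.08 and 4.37 FPKM and then at 1.30, 0.647, 0.584 and 0.428 FPKM, lower by 1.62 without the filter (limma, adjusted p = 3.5e-05). For Kmt2c, Kmt2d and Setd1a all morula libraries lay below all 2-cell libraries. The share of all genes whose groups do not overlap was not counted, in this or the other comparisons. Such separation is therefore not shown to be particular to the members. The overlapping Gm49388 was at 3.07 ± 0.198 and 0.333 ± 0.152 FPKM (SD, n = 4 each) in the same groups, and how reads were divided between the genes was not tested.

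Kmt2b, at 1.46, 1.54, 1.35 and 0.820 FPKM in control 2-cell embryos and 0.546, 0.388, 0.361 and 0.441 FPKM in control morulae, was lower by 0.66 without the filter (limma, adjusted p = 0.0051). Kmt2b, Kmt2d and all but 1 value of Setd1a were under 1 FPKM in morulae, and a log2 change of FPKM + 1 understates the change of genes this low. Kmt2b was at or above 1 FPKM in no more than the 3 libraries that the filter asks for, so leaving out any of the 2-cell libraries with the numbers 1, 2 and 4 removed it and brought the count of members from 6 to 5.

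Of the 4 core subunit genes, Ash2l and Wdr5 rose and Dpy30 and Rbbp5 did not pass. Ash2l, which with RBBP5 supports catalysis, was at 6.17, 11.2, 19.6 and 16.8 FPKM at the 2-cell stage and at 114, 116, 109 and 104 FPKM in morulae, a rise of 3.05 ± 0.25 on the log2 scale (limma, adjusted p = 2.7e-07). Wdr5, the scaffold that contacts the catalytic subunit, was at 45.2, 42.4, 49.3 and 50.3 FPKM and then at 94.1, 100, 83.2 and 78.0 FPKM, a rise of 0.90 ± 0.14 (limma, adjusted p = 8.4e-05). For both genes all morula libraries lay above all 2-cell libraries. Dpy30, whose small protein binds ASH2L, went from a mean of 149 ± 24.9 to 194 ± 20.8 FPKM (SD, n = 4 each) with overlapping ranges, and its log2 difference of 0.38 ± 0.20 did not pass (limma, adjusted p = 0.097). It passed without the library scaling (adjusted p = 0.030) and without the control morula library with the number 1 (0.53, adjusted p = 0.029), over a range of 0.029 to 0.764 in all alternatives. Rbbp5, which binds ASH2L and the catalytic SET domain, was at 2.19 ± 0.862 and 2.24 ± 1.60 FPKM, with overlapping libraries. Kmt2a and Setd1b were not kept by the filter. Kmt2a stayed at or below 0.139 FPKM in all 2-cell and morula libraries, and Setd1b lay between 0.244 and 0.453 FPKM in all of them.

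The summed FPKM of the 6 catalytic genes averaged 33.6 in control 2-cell embryos, 5.72 in control morulae and 4.90 in control blastocysts. The sum of the 4 core subunit genes was 211 ± 15.6, 396 ± 18.4 and 481 ± 33.7 FPKM in the same groups (SD, n = 4 each). Kmt2c alone made up 70.7% of the catalytic sum at the 2-cell stage and 52.5% in blastocysts. These ratios compare mRNA levels per length and say nothing of protein.

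From control morula to control blastocyst, 5 of the 10 members were kept, of which 1 rose and 1 fell, beside 27.6% of 11849 genes that rose and 28.8% that fell. Wdr5 fell from the morula values above to 17.1, 24.9, 32.7 and 26.5 FPKM, by 1.89 ± 0.16 on the log2 scale (limma, adjusted p = 2.4e-06, lower in 4 of 4 blastocyst libraries). Dpy30 rose from 175, 187, 223 and 191 FPKM in control morulae to 409, 353, 250 and 330 FPKM, by 0.68 ± 0.20 (limma, adjusted p = 0.013, higher in 4 of 4). The ranges did not overlap for either gene, although without the filter Dpy30 missed the threshold (adjusted p = 0.054, within a range of 0.0014 to 0.054 over all alternatives). The summed FPKM of 10 markers of the trophectoderm, the outer layer of the blastocyst, went from 293 ± 38.2 in control morulae to 5763 ± 781 in control blastocysts (SD, n = 4 each). The part of cell composition in these changes was not tested. Control morulae enter both stage comparisons, and the control libraries also enter the KD comparisons, so these comparisons are not independent.

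Ash2l, Rbbp5 and Kmt2c did not pass between these stages. Ash2l was at 59.2, 137, 149 and 125 FPKM in control blastocysts, so the library with the number 1 was well below the others, and the log2 difference from morulae was -0.08 ± 0.22 with it and 0.17 without it. Rbbp5 was at 2.78, 2.62, 3.78 and 3.07 FPKM and Kmt2c at 2.13, 3.25, 2.24 and 2.66 FPKM in control blastocysts. Rbbp5 passed only without the control morula library with the number 1, the highest of its group (0.63, limma, adjusted p = 0.021, within a range of 0.021 to 0.526 over all alternatives).

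Kmt2a, which encodes MLL1, had its highest control level in blastocysts. It was at 0.0346, 0.0107, 0.0208 and 0.0499 FPKM in control morulae and 0.292, 0.412, 0.346 and 0.492 FPKM in control blastocysts. The groups did not overlap, although all values were under the 1 FPKM that the filter asks for. Members that the filter removed were each compared by a two-sided exact permutation test on the same log2 scale, 19 tests over all comparisons with no adjustment, of which 5 reached 0.0286, the smallest p that 4 against 4 or 4 against 3 libraries allow. Kmt2a differed by 0.41 between control blastocysts and morulae (exact permutation p = 0.0286), and passed in limma without the filter (adjusted p = 0.00050). Kmt2b and Kmt2d, at 0.614 ± 0.115 and 0.523 ± 0.106 FPKM in control blastocysts, differed from control morulae by 0.14 and -0.18 with the same p in the same exact test, and neither passed in limma without the filter (adjusted p = 0.311 and 0.190). For both the ranges of FPKM overlapped between the stages, and the exact permutation p reached 0.114 for Kmt2b and 0.0571 for Kmt2d under other settings.

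The effect of the KD on these genes was then compared within each stage. At the 2-cell stage, none of the 8 members kept passed, and none of the 12160 genes tested did (0%), with limma finding 701 genes, among them 2 of the 8 members, at an unadjusted p under 0.05. With all 6 groups in 1 fit, 33 genes passed at this stage, H2afz among them and no member. The members at that level were Kmt2c, at 25.1, 36.2 and 30.9 FPKM in KD libraries against 22.1 to 25.8 FPKM in control, and Rbbp5, at 0.627, 0.957 and 1.34 FPKM against 1.15 to 3.09 FPKM. In both the groups overlapped. Kmt2b was at 1.71, 2.59 and 1.77 FPKM in KD 2-cell embryos, above all 4 control libraries, with a log2 difference of 0.43 ± 0.20 (limma, adjusted p = 0.828). Wdr5 was at 32.4, 43.1 and 33.7 FPKM and Dpy30 at 198, 192 and 149 FPKM in these KD libraries, each overlapping its control range. Kmt2d (3.47 to 6.78 FPKM), Setd1a (3.96 to 5.93 FPKM) and Ash2l (7.44 to 11.1 FPKM) overlapped their control ranges as well. For the members not kept, the exact permutation p was 0.771 for Kmt2a and 0.0857 for Setd1b, which was at 0.395 to 0.412 FPKM in KD and 0.244 to 0.388 FPKM in control 2-cell embryos.

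In morulae, none of the 5 members kept passed, beside 13.3% of the 10989 genes tested. Ash2l came nearest, at 73.7, 78.8 and 79.9 FPKM in KD against 114, 116, 109 and 104 FPKM in control morulae. All KD libraries lay below all control libraries, but the log2 difference of -0.38 ± 0.13 did not pass (limma, adjusted p = 0.080, unadjusted p = 0.015). It passed on FPKM as deposited (-0.51, adjusted p = 0.012) and without the control morula library with the number 1 (-0.43, adjusted p = 0.037), within a range of 0.012 to 0.419 over all alternatives. With the range of the library numbers as a term, its adjusted p was 0.054, no member passed, and 2038 genes did in place of 1458. On FPKM as deposited the median log2 difference of all genes was -0.09, against 0.02 after scaling, and 15.3% of the genes that passed were higher in KD, against 31.9% after scaling.

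Wdr5 was at 70.9, 67.3 and 73.4 FPKM in KD morulae, again below all control libraries, with a log2 difference of -0.20 ± 0.14 (limma, adjusted p = 0.353). Dpy30 (145 to 181 FPKM), Kmt2c (3.26 to 5.31 FPKM) and Rbbp5 (1.04 to 2.31 FPKM) overlapped their control ranges in KD morulae. Kmt2b, Kmt2d, Setd1a, Setd1b and Kmt2a were not kept, and their exact permutation p ranged from 0.0857 (Kmt2d) to 0.857 (Setd1b). Kmt2a was listed at 0 in the KD morula library with the number 1.

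Marker genes differed between the same morulae. The sum of 5 epiblast markers was 201, 205, 241 and 256 FPKM in control and 99.8, 100 and 160 FPKM in KD morulae, with no overlap. The most abundant was Tdgf1 in the control library with the number 1 and in all KD libraries, and Nanog in the others, and 1 marker was at 0 in the KD library with the number 1. Nanog fell from 106 ± 33.2 to 20.7 ± 10.8 FPKM (log2 difference -2.23 ± 0.37, limma, adjusted p = 0.0065), and Klf2 rose from 5.41 ± 1.42 to 8.56 ± 0.822 FPKM (0.71 ± 0.18, limma, adjusted p = 0.028, SD, n = 4 control and 3 KD libraries). None of the 8 trophectoderm markers tested passed, and their sums overlapped. The part of cell composition or of developmental stage in the morula values of Ash2l, Wdr5 and the other genes below was not tested.

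In blastocysts, 5 of the 10 members were kept. Of these, 1 rose in KD embryos, beside 16.7% of the 11828 genes tested that rose, and 1 fell, beside 19.8% that fell. Both were core subunit genes, but the members kept were the 4 core subunit genes and Kmt2c alone. The class of the genes that passed is therefore not used as a result. Wdr5 was at 45.50, 42.99, 78.32 and 53.56 FPKM in KD against 17.1, 24.9, 32.7 and 26.5 FPKM in control blastocysts, means of 55.1 ± 16.1 and 25.3 ± 6.42 (SD, n = 4 each). All KD libraries were above all control libraries, and Wdr5 rose by 1.10 ± 0.19 on the log2 scale, or 2.14-fold (limma, adjusted p = 0.00096, higher in 4 of 4 KD libraries). With any single library left out the log2 difference was 0.97 to 1.19, with adjusted p between 0.0011 and 0.0042.

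Dpy30 moved in the other direction. It was at 188, 226, 160 and 188 FPKM in KD against 409, 353, 250 and 330 FPKM in control blastocysts, means of 191 ± 27.1 and 335 ± 65.7 (SD, n = 4 each). The groups did not overlap, and Dpy30 fell by 0.79 ± 0.22 on the log2 scale (limma, adjusted p = 0.014, lower in 4 of 4 KD libraries). Without the filter on low values, which changes the genes tested and the fitted trend of the spread, its adjusted p was 0.071, within a range of 0.0033 to 0.071 over all alternatives. The ratio of Dpy30 to Wdr5, in FPKM, was 23.9, 14.2, 7.65 and 12.5 in control and 4.14, 5.26, 2.04 and 3.52 in KD blastocysts. It was lower in each KD library than in each control library, which the separate ranges of both genes already require.

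The other core subunit genes overlapped. Ash2l was at 109, 125, 138 and 118 FPKM in KD blastocysts, within the span of the control libraries, and its log2 difference was 0.14 ± 0.22 (limma, adjusted p = 0.652) and -0.11 without the control library with the number 1. Rbbp5 was at 2.79, 2.05, 2.27 and 3.80 FPKM in KD blastocysts, with a log2 difference of -0.13 ± 0.19. Kmt2c, the catalytic gene kept at this stage, was at 3.21, 2.48, 5.03 and 3.57 FPKM, with a difference of 0.34 ± 0.18 (limma, adjusted p = 0.163).

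Of the catalytic genes that were not kept, Kmt2a was at 0.126, 0.162, 0.266 and 0.155 FPKM in KD blastocysts, below all control libraries, a log2 difference of -0.23 (exact permutation p = 0.0286) that did not pass in limma without the filter (adjusted p = 0.0506). These levels are low, and how many reads they rest on is not known. Setd1a was at 0.701, 0.597, 1.26 and 0.801 FPKM in KD against 0.334, 0.538, 0.428 and 0.597 FPKM in control blastocysts, a log2 difference of 0.31 (exact permutation p = 0.0286, and up to 0.0571 under other settings). Setd1a did not pass in limma either, at an adjusted p of 0.156 without the filter and 0.114 with all 6 groups in 1 fit. On FPKM the lowest KD library and the highest control library were level. With a pseudocount of 0.1 in place of 1 the log2 differences of these low genes were larger, -0.81 for Kmt2a and 0.69 for Setd1a. Gm49388, which shares exons with Setd1a, was at 0.858 ± 0.309 and 0.603 ± 0.158 FPKM (SD, n = 4 each) in the same groups. Kmt2b, Kmt2d and Setd1b overlapped between the groups, with exact permutation p of 0.571, 0.400 and 0.171.

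**Figure D2:**
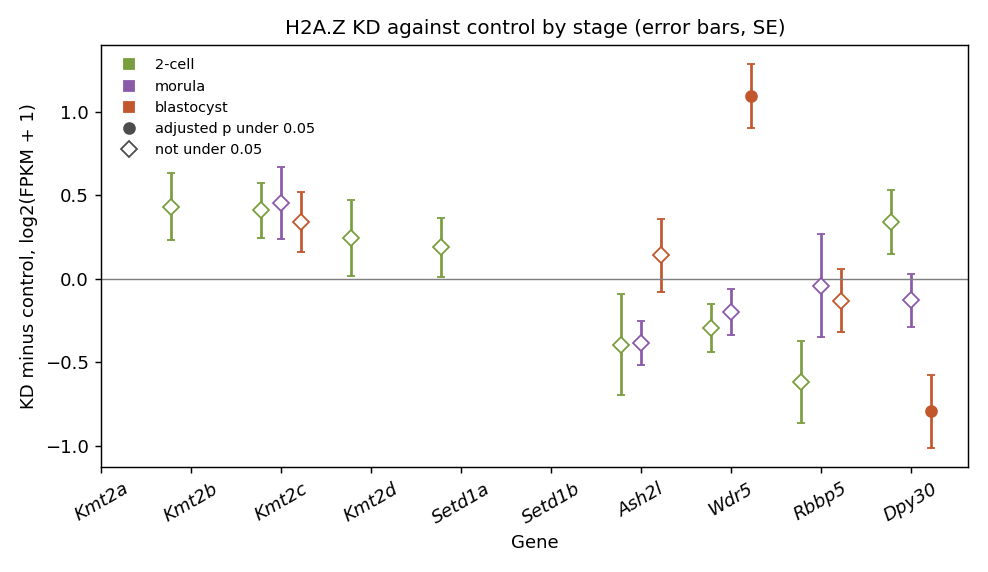
Difference between KD and control on the scale of log2(FPKM + 1) for each gene kept by the filter at the 2-cell (green), morula (purple) and blastocyst (orange) stage, with SE as error bars, filled circles for an adjusted p under 0.05 and open diamonds otherwise. Filled points are seen for Wdr5 (1.10) and Dpy30 (-0.79) in blastocysts, and Kmt2a and Setd1b were kept at no stage.

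Of 10 markers of the trophectoderm, the outer layer of the blastocyst, 4 fell in the same KD libraries (Dppa1, Fabp3, Id2 and Krt18), Tfap2c rose and 4 did not pass (Cdx2, Gata3, Eomes and Krt8). Among all genes tested, 16.7% rose and 19.8% fell. Krt7 was at 1 FPKM or more in only 2 control libraries, so its test with the filter is not used. It was higher in KD blastocysts (2.12 ± 0.374 against 1.01 ± 0.238 FPKM, SD, n = 4 each) with no overlap. Without the filter it passed (limma, adjusted p = 0.0155). The summed FPKM of the list was 6684, 6111, 5299 and 4960 in control and 1876, 2743, 2024 and 2278 in KD blastocysts, with Fabp3 the most abundant of the list in every library and no marker at 0. The defining factor Cdx2 was at 1.79 ± 0.765 and 1.89 ± 0.938 FPKM (SD, n = 4 each) in control and KD blastocysts. In pooled embryos, fewer cells of a type and less RNA per cell cannot be told apart, and the part of cell composition in the levels of Wdr5, Dpy30 and Kmt2a was not tested.

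Among control blastocysts, the library with the number 1 had the highest trophectoderm sum, the highest Dpy30 and the lowest Wdr5 and Ash2l. Without that library Wdr5 differed by 0.97 (limma, adjusted p = 0.0025) and Dpy30 by -0.64 (limma, adjusted p = 0.034). The sum of 5 epiblast markers was 212, 231, 298 and 184 FPKM in control and 151, 168, 295 and 210 FPKM in KD blastocysts, so these overlapped, led by Nanog and with Tdgf1 as the marker that fell. Tdgf1 went from 80.6 ± 23.1 to 15.2 ± 2.28 FPKM (SD, n = 4 each, log2 difference -2.28 ± 0.23, limma, adjusted p = 3.0e-05). The sum of 5 primitive endoderm markers overlapped as well, at 10.3 to 20.5 FPKM in control and 10.2 to 37.4 FPKM in KD blastocysts, with Gata6 the most abundant gene in every library and the only one of the list kept by the filter. The sum thus mostly showed Gata6, at 10.6 ± 5.87 and 19.0 ± 11.8 FPKM in control and KD blastocysts. Pdgfra (1.72 ± 1.10 and 0.595 ± 0.328 FPKM) and Sox17 (0.596 ± 0.395 and 0.277 ± 0.121 FPKM, SD, n = 4 each) had lower means in KD blastocysts, with overlapping ranges and no test.

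Markers of other stages and cells were low in blastocysts. The sum of 5 genes of the 2-cell stage, led by Zfp352 in all but 1 of these libraries, was 0.0826 to 0.899 FPKM in control and 2.78 to 13.2 FPKM in KD blastocysts, against 156 to 216 FPKM in control 2-cell embryos. Zfp352 was at 0.0826 to 0.772 FPKM in control and 1.52 to 5.02 FPKM in KD blastocysts. As the only gene of the list that the filter kept there, and kept through the KD libraries alone, it had to differ, so its test is not used. Of 5 oocyte markers, the sum was 730 to 991 FPKM in control 2-cell embryos, 4.62 to 10.0 FPKM in control morulae and 1.71 to 2.17 FPKM in control blastocysts, so maternal transcripts were abundant at the stage where most catalytic genes were highest, and their part in those levels was not tested. Of 8 cumulus and granulosa markers, which would show cells carried over from the oviduct, 4 to 7 were at 0 in each library and the sum was at most 3.69 FPKM.

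Levels in KD blastocysts were also set beside those of control morulae, with no test. Wdr5 in KD blastocysts (42.99 to 78.32 FPKM) lay between control blastocysts (17.1 to 32.7 FPKM) and control morulae (78.0 to 100 FPKM), with its highest library just inside the morula range. Dpy30 in KD blastocysts (160 to 226 FPKM) spanned the control morula range of 175 to 223 FPKM. Kmt2a in KD blastocysts was above every control morula library, whose highest value was 0.0499 FPKM.

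The difference between the KD effects in blastocysts and morulae was tested as an interaction over the 4 groups. Of the 5 members kept, 1 passed, beside 11.7% of the 12727 genes tested. The KD effect on Wdr5 was 1.26 ± 0.24 higher in blastocysts than in morulae on the log2 scale (limma, adjusted p = 0.0028), and in single libraries it was below the controls in 3 of 3 KD morula libraries and above them in 4 of 4 KD blastocyst libraries. For Dpy30 the difference of effects was -0.70 ± 0.29 and did not pass (limma, adjusted p = 0.119). Without the control blastocyst library with the number 5, which had the lowest Dpy30 of its group, it passed (-0.87, limma, adjusted p = 0.040, within a range of 0.040 to 0.273 over all alternatives). The alternatives for the interaction held no term for the library numbers and no fit of all 6 groups. Marker genes passed in the same interaction. The KD effect was higher in blastocysts for Nanog (2.49) and Tfap2c (1.10). It was lower for Tdgf1 (-2.18), Id2 (-2.21), Dppa1 (-2.66) and Klf2 (-0.76), with limma adjusted p of at most 0.042 for all of these markers. Dppa1 had means of 0.776 and 1.27 FPKM in control and KD morulae, against 1042 and 176 FPKM in control and KD blastocysts. At morula levels this low little KD effect can be measured, so the interaction of Dppa1 mostly repeats its fall in blastocysts. The part of cell composition in the interaction was not tested. The differences between the 2-cell stage and the later stages were not tested.

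Other genes of H3K4 methylation were described from lists, and several of their calls depended on the settings. Complex-specific subunits bring the core to its targets, for example menin (Men1) in MLL1 and MLL2 complexes and PTIP (Paxip1) with PA1 (Pagr1a) in MLL3 and MLL4 complexes. Of 13 such genes, 11 were tested in morulae, of which Tasp1 rose and Pagr1a fell, beside 13.3% of all genes that passed in either direction. Pagr1a fell by 0.79 ± 0.17 (limma, adjusted p = 0.016, lost in 2 of 13 alternatives, up to 0.0615), from 7.41 ± 1.95 to 3.46 ± 0.632 FPKM. Men1 was at 1.44 ± 0.698 FPKM in control and 0.372 ± 0.0250 FPKM in KD morulae. It was kept through the control libraries alone and so had to differ, its test is not used, and without the filter it did not pass (limma, adjusted p = 0.135). Tasp1, which encodes the protease that cleaves MLL proteins, rose by 0.61 ± 0.16 (limma, adjusted p = 0.030, lost in 6 of 13 alternatives, up to 0.133), from 7.13 ± 0.663 to 10.5 ± 1.44 FPKM (SD, n = 4 control and 3 KD libraries). The median of the list was 0.01996, against 0.01518 over all genes. In KD blastocysts 1 of 12 tested subunits rose, Paxip1, from 1.43 ± 0.259 to 2.92 ± 1.28 FPKM (log2 difference 0.64 ± 0.20, limma, adjusted p = 0.025, lost in 4 of 14 alternatives, up to 0.0772), and none fell, beside 16.7% of all genes that rose and 19.8% that fell.

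The H2B ubiquitination and PAF1 complex genes, which act upstream of H3K4 methylation on transcribed genes, were all tested. In KD morulae 2 of 10 rose, Ube2a (log2 difference 0.89 ± 0.16, limma, adjusted p = 0.0082) and Ctr9 (0.61 ± 0.17, adjusted p = 0.040), and none fell, beside 13.3% of all genes that passed in either direction. The call of Ctr9 was lost in 8 of 13 alternatives (limma, adjusted p up to 0.310), and that of Ube2a in none. In KD blastocysts 4 of 10 rose and none fell, beside 16.7% and 19.8% of all genes. These were Paf1, from 7.79 ± 2.27 to 14.6 ± 2.67 FPKM (log2 difference 0.87 ± 0.19, limma, adjusted p = 0.0042), Ctr9 (0.62 ± 0.20), Leo1 (0.61 ± 0.18) and Wac (0.57 ± 0.16). The calls of Paf1 and Wac held under all 14 alternatives, while that of Ctr9 was lost in 7 (limma, adjusted p up to 0.0890) and that of Leo1 in 3 (up to 0.0688). The median of the list was 0.38 in morulae and 0.42 in blastocysts, against 0.02 and 0.00 (0.0047) over all genes. The summed epiblast markers were lower in the same morulae and the summed trophectoderm markers in the same blastocysts, as given above, and their part in this was not tested. In the interaction, the KD effect on Leo1 was higher (0.77 ± 0.22) and that on Ube2a lower (-1.38 ± 0.24) in blastocysts than in morulae (limma, adjusted p = 0.036 and 0.0017), as it was for the complex-specific subunits Psip1 (-0.98 ± 0.24) and Bod1l (-0.70 ± 0.21, limma, adjusted p = 0.016 and 0.042). The calls of Ube2a and Psip1 held under all 18 alternatives, while that of Leo1 was lost in 8 (limma, adjusted p up to 0.0838) and that of Bod1l in 13 (up to 0.143).

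Enzymes that remove H3K4 methylation and proteins that read it were set beside 13.3% of all genes that passed in KD morulae, and 16.7% that rose and 19.8% that fell in KD blastocysts. Of 6 demethylase genes, 5 were tested, none passed in morulae, and in KD blastocysts Kdm5b rose from 4.96 ± 1.85 to 9.39 ± 2.73 FPKM (SD, n = 4 each, log2 difference 0.83 ± 0.24, limma, adjusted p = 0.019, lost in 3 of 14 alternatives, up to 0.0826). Among 12 genes for H3K4me3 readers, Sgf29 rose in KD morulae (0.56 ± 0.17, limma, adjusted p = 0.049), a call lost in 9 of 13 alternatives (up to 0.165). The remodeller gene Chd1 rose in KD blastocysts (0.70 ± 0.21, limma, adjusted p = 0.019, lost in 2 of 14 alternatives, up to 0.0623). The other readers did not pass at either stage. Of 7 other SET-domain genes tied to H3K4, none of the 2 tested in morulae and none of the 4 tested in blastocysts passed. No gene of these lists passed at the 2-cell stage, where no gene of the table did.

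Between control 2-cell embryos and morulae, 43% of all genes rose and 40.3% fell, and these shares stand beside the counts that follow. Of 13 complex-specific subunits 8 fell and 1 rose. The riser, Men1, was kept through morulae alone (at most 0.769 FPKM at the 2-cell stage), and of those that fell Hcfc2 and Ncoa6 were kept through the 2-cell stage alone (at most 0.280 and 1.76 FPKM in morulae). These 3 had to differ, and the count is not used as a result. Of 5 tested demethylases 4 fell and 1 rose, with a median of -0.94 (Kdm1a, the gene that rose, lost in 1 of 12 alternatives, limma, adjusted p up to 0.0514), and of 12 readers 8 fell and 4 rose, with a median of -1.17, against 0.10 over all genes. Of 10 H2B ubiquitination and PAF1 complex genes 6 fell and 2 rose (median -0.80), led by Paf1 (-2.02 ± 0.24). Of 4 tested other SET-domain genes 3 fell and 1 rose. In this last list Smyd2, at most 0.365 FPKM at the 2-cell stage, was kept through morulae alone. Ash1l and Prdm9, at most 0.868 and 0.849 FPKM in morulae, were kept through the 2-cell stage alone. These genes had to differ, and the count of this list is not used as a result. The largest changes among complex-specific subunits, demethylases and readers were those of Psip1 (124 ± 20.8 to 8.53 ± 1.71 FPKM), Kdm1b (13.9 ± 1.04 to 2.27 ± 0.662 FPKM) and Spin1 (1510 ± 117 to 10.5 ± 2.01 FPKM, SD, n = 4 each), all downward. Oocyte markers were lost over the same interval, as given above, and their part in these falls was not tested.

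From control morula to blastocyst, 27.6% of all genes rose and 28.8% fell, and some of the list counts were near these shares. In this comparison 2 of 5 tested demethylases fell (Kdm5b and Kdm5a), with a median of -0.40, and 5 of 10 H2B ubiquitination and PAF1 complex genes fell and 1 rose, with a median of -0.46. Of 12 readers 4 fell and none rose, with a median of -0.43, led by Sgf29 (-1.43 ± 0.20, limma, adjusted p = 7.7e-05). Of the other 3, the call of Taf3 was lost in 5 of 11 alternatives (limma, adjusted p up to 0.0698), that of Ing5 in 1 (up to 0.0591) and that of Chd1 in none. Of 12 tested complex-specific subunits 3 rose (Psip1, Pagr1a and Wdr82, the last lost in 6 of 11 alternatives, limma, adjusted p up to 0.109) and 1 fell (Kdm6a), with a median of -0.26, and none of the 4 other SET-domain genes tested passed. The median over all genes was -0.02. The summed trophectoderm markers were far higher in the same blastocysts, as given above, and the part of cell composition in these counts was not tested. Kdm5b went from 17.6 ± 1.22 to 4.96 ± 1.85 FPKM (SD, n = 4 each), a fall of 1.77 ± 0.19 (limma, adjusted p = 1.2e-05).

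As a description of likeness, the gene with the highest Pearson r of log2(FPKM + 1) over the 22 libraries was found for each member among genes with a mean of at least 5 FPKM (6978 genes for each member). The 22 points share 3 stages, which set most of the variation. Setd1a was most like Kmt2c, another member (r = 0.994), and Kmt2c was most like N4bp1 (r = 0.992). The nearest genes were Itga9 for Kmt2d (r = 0.985), Noct for Kmt2b (r = 0.943), Msn for Kmt2a (r = 0.939) and Polr1b for Setd1b (r = 0.684). For core subunits they were Ap2m1 for Ash2l (r = 0.991), Naalad2 for Wdr5 (r = 0.963), Snrnp27 for Dpy30 (r = 0.945) and Gnai3 for Rbbp5 (r = 0.786).

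Promoter windows from RefSeq (GRCm38.p6, 250 bases before to 50 bases after the start) matched 7 of the 10 members, with 4 windows for Dpy30. Kmt2b, Setd1b and Ash2l are named only. Because Wdr5 and Dpy30 were the members that passed, in opposite directions, in KD blastocysts, and H2A.Z is a component of promoter nucleosomes, their windows are shown 5′ to 3′ with CpG dinucleotides in capitals. The Wdr5 window is at chr2:27514897-27515196 on the plus strand and the Dpy30 window at chr17:74316384-74316683 on the minus strand, the most upstream of 3 overlapping windows inside the annotated gene.
Wdr5: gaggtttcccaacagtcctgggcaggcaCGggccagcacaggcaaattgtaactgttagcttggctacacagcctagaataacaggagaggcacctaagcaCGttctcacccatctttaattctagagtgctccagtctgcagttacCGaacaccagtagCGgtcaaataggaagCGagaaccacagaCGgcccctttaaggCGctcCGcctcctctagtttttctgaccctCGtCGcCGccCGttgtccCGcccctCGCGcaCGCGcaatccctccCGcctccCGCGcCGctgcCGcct
Dpy30: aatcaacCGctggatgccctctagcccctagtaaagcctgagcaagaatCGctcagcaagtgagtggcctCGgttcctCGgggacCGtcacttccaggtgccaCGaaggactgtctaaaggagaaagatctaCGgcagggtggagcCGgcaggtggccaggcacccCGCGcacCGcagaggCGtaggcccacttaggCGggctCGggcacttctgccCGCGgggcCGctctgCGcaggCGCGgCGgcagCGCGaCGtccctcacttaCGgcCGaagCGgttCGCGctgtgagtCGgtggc

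The Wdr5 window held 22 CpG and the Dpy30 window 30, against a median of 7 over all 32851 windows. The Dpy30 window at the outermost annotated start, chr17:74323895-74324194, held 1 CpG, and gene-level FPKM do not show which start was used. Motifs were counted on both strands by their letters. Of all windows, 37.4% held CCAAT, 35.7% held GGGCGG, 14.9% held CCGGAA and 7.15% held CACGTG. The Wdr5 window held GGGCGG at 2 places and no other of these motifs, and the Dpy30 window shown held none. Of the other Dpy30 windows, the most downstream of the 3 that overlap held GGGCGG at 1 place and the outermost held CCAAT at 1 place. Occupancy of H2A.Z or H3K4me3 at these promoters was not analysed here.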

How the data were processed

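Reads were aligned by the authors to mm10 with STAR, and the deposited FPKM were quantified with StringTie (version 2.1.4, per the submitters' processing notes). All 22 value columns were matched to samples by their titles, no pair of libraries was identical, and 54587 of 55335 gene identifiers matched the GENCODE annotation in the same version. From these FPKM, a factor per library (the median ratio to the geometric mean over genes above 0 in all libraries of a comparison, 0.895 to 1.19) and log2 values with a pseudocount of 1 were computed here. Genes with at least 1 FPKM in at least 3 libraries were fitted with limma 3.58.1 in R 4.3.3 (lmFit, eBayes with trend, two-sided, no covariates, Benjamini-Hochberg adjustment), which was tested on simulated data. Other steps and figures were made with Python 3.11.15, numpy 2.4.6, pandas 2.3.3 and matplotlib 3.10.9. A DEG also needed an absolute log2 difference above 1. Genes named are the 10 members, H2afz, H2afv, genes of the fixed lists that passed, at most 4 per list and comparison, and the nearest gene of each member. Other genes named are those of the marker lists, and Gm49388 was named after its overlap was seen. The members and lists were chosen with earlier results of these data known. The alternatives tried were FPKM as deposited, a pseudocount of 0.1, no filter, each library left out, the replicate number as a block, the range of replicate numbers as a term, and 1 fit of all 6 groups.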

Additional observations from a re-analysis of the deposited data

Results flagged for a closer look

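Wdr5 stood out because the effect of the KD differed between stages in a test of the difference itself. On the log2 scale the KD effect was 1.26 higher in blastocysts than in morulae (limma interaction, adjusted p = 0.0028), and with any single library left out the value was 1.13 to 1.36. H2afv, the second H2A.Z gene, was selected in the same way. Its KD effect was 1.04 higher, that is, a smaller fall, in blastocysts than in morulae (limma interaction, adjusted p = 0.021), a call lost in 2 of 18 alternatives, without the filter on low values (adjusted p = 0.066) and without the KD morula library with the number 6 (adjusted p = 0.0500005). No library of the 10 members, H2afz or H2afv stood apart from its group by Dixon's test in the 48 groups of 4 that were examined, where chance alone gives about 1 in 20.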

How the results depend on the processing

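The rise of Wdr5 in KD blastocysts passed under every alternative (limma, adjusted p at most 0.010), and its interaction passed under the 18 alternatives run for it (at most 0.011), which held no term for the library numbers and no fit of all 6 groups. Of the log2 differences from limma under other settings, 1166 kept their direction and side of the threshold, 87 lost a call, 8 gained one and 17 changed sign, all 17 of values that did not pass. The cause of the changes below was not tested, except that no filter adds genes to the adjustment and a left-out library lowers the number of libraries.

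With FPKM as deposited, 1 member passed in morulae (0 with scaling), the log2 difference of Setd1b in morulae was -0.0315, and that of Ash2l between control morulae and blastocysts was 0.0052. In that setting the median over all genes of the interaction was 0.11, against -0.01. A pseudocount of 0.1 gave 789 DEGs in morulae (387 with 1) and 2477 in blastocysts (1626 with 1). With no filter, 1 member passed in blastocysts (2 with it), 412 genes passed and 169 were DEGs in morulae (1458 and 387 with it), and 988 genes passed the interaction with 572 DEGs (1495 and 972 with it). With the replicate number as a block, the log2 difference was 0.0120 for Dpy30 in morulae, and 0.36 for Rbbp5, -0.0853 for Dpy30 and -0.18 for H2afz from control 2-cell embryos to morulae. The counts of members passing did not change with the block. With the range of the numbers as a term (1 and 2 against higher, in blastocysts 1 against higher), 0 members passed at the 2-cell stage, 0 in morulae and 2 in blastocysts, as without it, and 2038 genes passed in morulae (1458 without it) and 4520 in blastocysts (4321). With all 6 groups in 1 fit, 33 genes and 0 members passed at the 2-cell stage.

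Leaving out 1 library at a time, 0 to 3 genes passed at the 2-cell stage and 0 to 3 were DEGs. In morulae 0 to 1 members and 551 to 1744 genes passed, and in the interaction 1 to 2 members and 962 to 1722 genes. The KD differences on the log2 scale ranged from -0.0083 to 0.039 for Kmt2a and -0.0058 to 0.43 for Kmt2d at the 2-cell stage, and from -0.0081 to 0.028 for Setd1b and -0.21 to 0.20 for Rbbp5 in morulae. In blastocysts they ranged from -0.0182 to 0.113 for Kmt2b and -0.11 to 0.24 for Ash2l, and in the interaction from -0.37 to 0.0551 for Rbbp5. In control embryos, Rbbp5 ranged from -0.28 to 0.14 from the 2-cell stage to the morula and Ash2l from -0.19 to 0.17 from the morula to the blastocyst. The alternatives for members that the filter removed were chosen after seeing the data.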
